A study of Mus musculus with 13 samples.

Results

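The amino acid transporters are a set of 60 gene symbols, of 23361 in the deposited tables, taken by name from 7 families of solute carriers. The rule kept each symbol that starts with Slc1a, Slc3a, Slc6a, Slc7a, Slc36a, Slc38a or Slc43a followed by a number, and left out Slc1a2 and Slc38a3. The rule itself used no measured value, but members were chosen with earlier results of these data known. There were 19 members of the Slc6a family, 16 of Slc7a, 10 of Slc38a, 6 of Slc1a, 4 of Slc36a, 3 of Slc43a and 2 of Slc3a. One symbol, Slc7a6os, belongs to a gene opposite Slc7a6 and not to a carrier.

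RNA came from hepatocellular carcinomas, the cancer of hepatocytes, in mice on a mixed C57BL/6 and 129Sv background. Both groups carried the genotype Mst1-/-; Mst2Flox/Flox, with Mst1 lost in the germline and Mst2 removed in the liver by an injected adenovirus carrying Cre, so tumour and host lacked Mst1 in either group. Tumours were found by ultrasound. The siYap group (5 libraries) received siYap-LNPs, lipid nanoparticles with an siRNA against Yap, the co-activator that Mst1 and Mst2 restrain. The siLuc group (8 libraries) received siLuciferase-LNPs, whose siRNA has no mouse target. Both were injected intravenously for 9 days. Age is not in the labels. They do not tie libraries to animals either, so each p-value reflects how far these libraries differ from one another, which may be partly technical.

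Solute carriers of these families move amino acids, and some amines and osmolytes, across the plasma membrane, the lysosome or synaptic vesicles. Several work as exchangers: Slc1a5 brings glutamine into the cell, and Slc7a5 gives glutamine out in return for leucine and other large neutral amino acids. Members of the Slc7a light-chain group reach the membrane only when joined to a heavy chain, Slc3a2 (CD98) or Slc3a1 (rBAT). In the liver, Slc38a4 and Slc7a2 are known as carriers of neutral and cationic amino acids, and Slc6a13 as a carrier of GABA and taurine. The transcription factor Atf4 is known to raise several members when amino acids are short.

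Libraries held 23637021 to 37043914 estimated fragments on genes, and levels below are FPKM, fragments per kilobase of transcript scaled to depth. The siYap replicates 1 and 3 had the lowest totals and the highest level of the ribosomal precursor Rn45s, 1160 and 1882 CPM against 479 to 812 CPM in the other libraries. Summed over 4 Y-linked genes, siLuc replicate 8 had 28874 fragments and no other library more than 11, so it was the single male. Yap1 itself stood at 2.22 to 4.17 FPKM in siYap and 8.10 to 11.9 FPKM in siLuc tumours, which do not overlap. Hepatocyte markers summed to 3564 to 5816 FPKM in siYap and 3466 to 6149 FPKM in siLuc libraries. Of the 8 genes 3 were higher (among them Tat), 2 lower (among them Cps1) and none at 0. Most of that sum was Ttr, which was neither among the higher nor the lower genes. It stood at 2451 to 4405 FPKM in siYap and 1845 to 3594 FPKM in siLuc libraries.

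More transporters were higher than lower after siYap. Of the 60 members, 14 were called higher (23.3%) and 6 lower (10%) in siYap, at an adjusted p under 0.05 in edgeR's quasi-likelihood test over 15132 genes. Of all genes tested, 16.0% were called higher and 14.8% lower. The members' denominator includes 17 symbols with too few fragments to test, so both member shares would be larger over the 43 tested. The median log2 fold change of those 43 was 0.26, against 0.00 over all genes tested. In 4 members each siYap library lay above each siLuc library (Slc1a5, Slc7a5, Slc7a8 and Slc38a11), and in 3 each lay below (Slc1a1, Slc7a7 and Slc6a4). Over all genes tested those shares were 5.57% and 5.66%. The balance was closer in other fits. In counts summed over libraries that share a number in their table names, 9 members were higher and 7 lower. Of all genes, 1901 were higher and 1892 lower in that fit. Without both siYap libraries of lowest depth, 7 members were higher and 5 lower, and of all genes 1512 and 1472. With a log2 fold change of at least 1 in size, 9 members were higher and 6 lower, and of all genes 1053 and 939. Each of the 7 families held at least 1 call, as the plot of fold changes by transport role shows.

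**Figure D1:**
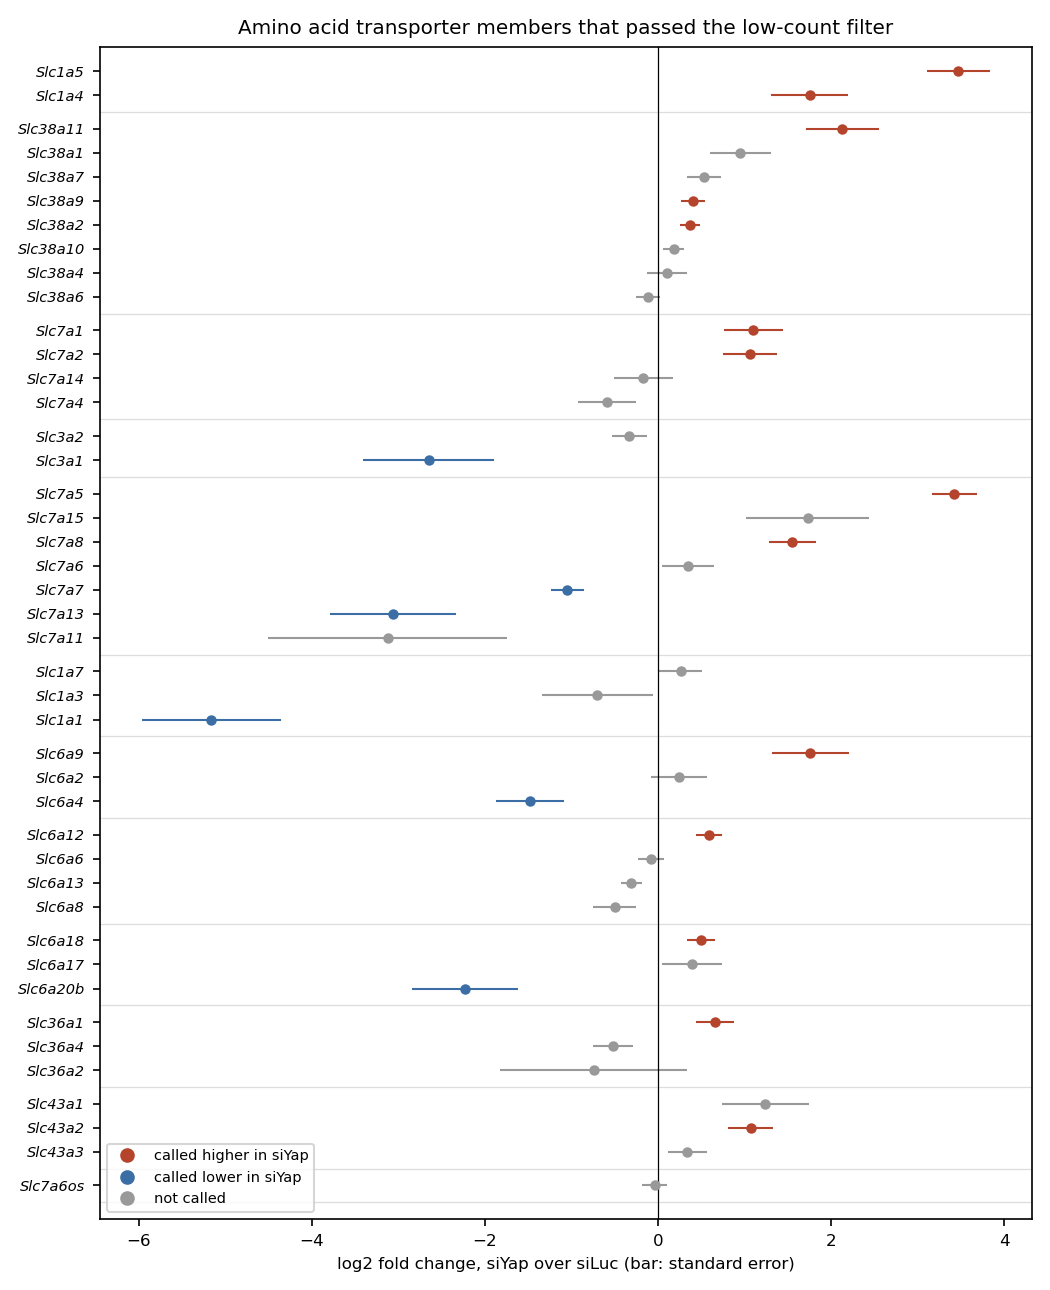
Log2 fold change of the 43 tested members in siYap over siLuc tumours (x axis), with bars of 1 standard error and members grouped by transport role down the page. Slc1a5 and Slc7a5 lie farthest to the right at 3.47 and 3.42, and Slc1a1 farthest to the left at -5.16.

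Of the 20 called members, 14 were called again without each library in turn, and 8 under every other fit that tested them: Slc1a1, Slc1a5, Slc38a11, Slc6a12, Slc6a9, Slc7a5, Slc7a7 and Slc7a8. The names of the deposited tables carry a code whose first digit (6, 7 or 8) divides the libraries, with both treatments in each, and the labels do not say what it stands for. The difference had the same sign as the call in 20 of 20 members within digit 6, in 20 within digit 7 and in 19 within digit 8. In digit 8 there was 1 siYap library and 1 siLuc library, the male replicate. The names also carry a number, with 3 numbers among the 5 siYap libraries and 5 among the 8 siLuc libraries. What it marks is not stated, and if libraries of 1 number share an animal, n = 5 and n = 8 count libraries and not animals. With counts summed per number, Slc7a2, Slc6a18, Slc7a1, Slc38a9 and Slc36a1 were not called, at adjusted p of 0.0608, 0.0734, 0.0949, 0.119 and 0.232. Without both siYap libraries of lowest depth, 11 of the 20 were called, and adjusted p of the other 9 ran from 0.0567 (Slc7a13) to 0.356 (Slc36a1), with 0.103 for Slc6a20b.

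Markers of other cell types also differed between the groups. Neutrophil markers summed to 157 to 1176 FPKM in siYap and 35.1 to 189.7 FPKM in siLuc libraries, with 5 of 6 genes higher. Cholangiocyte markers summed to 161 to 1141 FPKM in siYap and 1939 to 5055 FPKM in siLuc libraries, with 3 of 7 genes lower (Spp1, Epcam and Sox9). Spp1 made up nearly all of that sum, at 153 to 1130.5 FPKM in siYap and 1912 to 5012 FPKM in siLuc libraries, and Krt7 and Krt19 were not called (adjusted p = 0.890 and 0.785). Stellate and fibroblast markers summed to 160.4 to 643 FPKM in siYap and 58.7 to 284 FPKM in siLuc libraries, with 3 of 8 higher. Endothelial markers summed to 62.7 to 81.5 FPKM in siYap and 46.7 to 76.1 FPKM in siLuc libraries, with 3 of 8 higher. Macrophage markers (1 higher and 3 lower of 7 tested), lymphocyte markers (1 lower of 7) and erythroid markers (1 lower of 4, and 1 of the 6, Hba-a1, with no whole fragment in any library) had sums of 40.1 to 127, 3.04 to 9.49 and 8.94 to 18.4 FPKM in siYap. Their sums in siLuc libraries were 51.6 to 152, 3.29 to 20.3 and 6.53 to 28.6 FPKM. The part of these markers in the differences of the transporters was not tested. In bulk tumour RNA, fewer cells of a type and less RNA per cell cannot be told apart.

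Both sodium-coupled neutral exchangers of the Slc1a family were called higher, where 16.0% of all genes tested were called higher. Slc1a5, also called ASCT2, is the exchanger best known for glutamine uptake in growing cells. Slc1a5 (chr7:16781340-16798274, mm10, plus strand) had 4.65, 17.3, 11.4, 14.0 and 5.01 FPKM in siYap replicates 1 to 5, against a lowest value of 0.361, a median of 1.06 and a highest of 1.35 FPKM in siLuc. Each siYap value lay above the siLuc range, and siYap replicates 1 and 5 were the low ones of their group. The mean was 10.9-fold higher, with a log2 fold change of 3.47 ± 0.36 (SE) and an adjusted p of 1.90e-05. Within digits 6, 7 and 8 the difference was 3.40, 3.51 and 3.73 in log2 CPM. Counts behind these values were 326 to 1638 fragments in siYap and 41 to 143 in siLuc libraries.

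Slc1a4 (chr11:20302180-20332713, minus strand), the related carrier ASCT1 for alanine, serine and cysteine, had 3.89, 10.6, 8.09, 8.90 and 11.6 FPKM in siYap replicates 1 to 5. Its siLuc values ran from 0.707 through a median of 1.84 to 7.35 FPKM. The groups overlapped only through siYap replicate 1, the lowest of its group, and siLuc replicate 1, at 7.35 FPKM the highest of its own by a wide margin (the next was 3.80 FPKM). On average Slc1a4 was 3.30-fold higher (log2 fold change 1.75 ± 0.44, adjusted p = 0.00892).

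Of the 10 light chains of the heteromeric exchangers, 7 were tested. Slc7a5 and Slc7a8 rose, and Slc7a7 and Slc7a13 fell, where 16.0% of all genes tested were called higher and 14.8% lower. Slc7a5 (chr8:121881150-121907694, minus strand), or LAT1, the main leucine carrier of many tumours, had 1.10, 1.88, 3.48, 1.99 and 1.61 FPKM in siYap replicates 1 to 5. In siLuc it had 0.122 to 0.255 FPKM, with a median of 0.195. The groups were apart in every library, although the gene stayed at a low level in both. The mean was 10.6-fold higher, with a log2 fold change of 3.42 ± 0.26 (SE), an adjusted p of 1.51e-06, and differences of 3.16, 3.51 and 3.57 within digits 6, 7 and 8.

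Slc7a8 (chr14:54722209-54781946, minus strand), or LAT2, a broader carrier of neutral amino acids, had 1.66, 0.608, 1.23, 0.957 and 0.761 FPKM in siYap replicates 1 to 5. The siLuc libraries ran from 0.235 through a median of 0.374 to 0.478 FPKM, below each siYap library. Its log2 fold change was 1.55 ± 0.27 (SE), with a mean 2.81-fold higher and an adjusted p of 0.000711.

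Slc7a7 (chr14:54369442-54417780, minus strand), or y+LAT1, exchanges lysine and arginine for neutral amino acids and is the gene of lysinuric protein intolerance in humans. It had 4.58, 2.35, 4.51, 5.35 and 3.79 FPKM in siYap replicates 1 to 5, against 6.11, 9.41 and 10.2 FPKM as the lowest, median and highest of siLuc. Each siYap value lay below the siLuc range. Its mean was 2.08-fold lower in siYap (log2 fold change -1.05 ± 0.19, adjusted p = 0.00113). Its exons overlap those of Oxa1l on the other strand, and Oxa1l did not pass the test (0.10 ± 0.18 on the log2 scale, adjusted p = 0.706). How the counting used strand is not given in the sources used here.

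Slc3a2, the heavy chain that these light chains join, did not pass the test, at 9.46 ± 1.63 FPKM (SD, n = 5) in siYap and 12.0 ± 3.73 FPKM (SD, n = 8) in siLuc (log2 fold change -0.33 ± 0.20, adjusted p = 0.213). The 6 light chains known to pair with it are Slc7a5, Slc7a6, Slc7a7, Slc7a8, Slc7a10 and Slc7a11, and their FPKM summed to 7.70 to 12.0 in siYap and 7.96 to 89.4 in siLuc libraries. Of that sum Slc7a5 made up 10.6% to 29.1% in siYap and 0.171% to 3.02% in siLuc libraries, which did not overlap. Slc7a7 made up 30.6% to 52.2% in siYap and 11.4% to 86.6% in siLuc, which did overlap. In siLuc replicates 1 and 6, Slc7a11 held 87.1% and 69.3% of the sum.

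**Figure D2:**
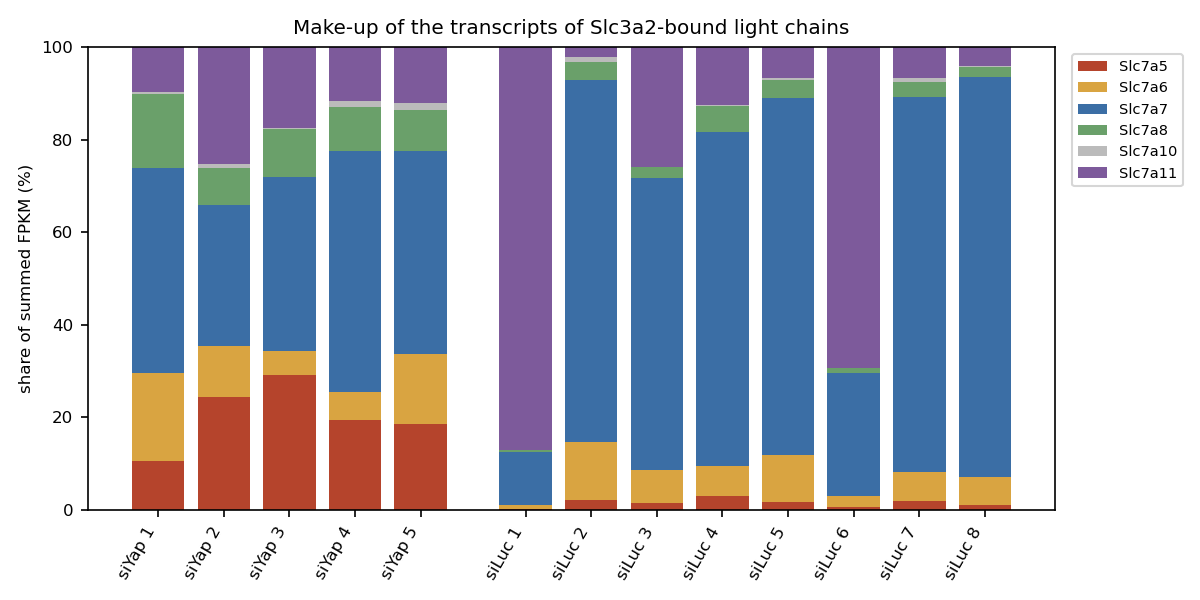
Share of each of the 6 Slc3a2-bound light chains in their summed FPKM (y axis, percent), 1 bar per library with siYap on the left and siLuc on the right. The Slc7a5 part is 10.6% to 29.1% in siYap bars and at most 3.02% in siLuc bars, and Slc7a11 fills most of the bars of siLuc replicates 1 and 6.

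Slc7a11 (chr3:49892526-50443614, minus strand), or xCT, imports cystine in exchange for glutamate and feeds glutathione synthesis. It had 1.0, 1.94, 2.11, 1.2 and 1.05 FPKM in siYap replicates 1 to 5. In siLuc it had 77.9, 0.179, 3.90, 1.06, 0.806, 25.4, 0.668 and 0.464 FPKM in replicates 1 to 8. The siLuc libraries thus spanned 434-fold, and the siYap libraries 2.1-fold, inside the siLuc range. Slc7a11 was not called (-3.12 ± 1.38 on the log2 scale, adjusted p = 0.0989), with a log2 fold change of -1.67 (adjusted p = 0.252) without siLuc replicate 1, while its median was 1.2 FPKM in siYap and 0.934 FPKM in siLuc, a difference of the other sign. Slc7a6, or y+LAT2, stood at 1.07 ± 0.569 FPKM (SD, n = 5) in siYap and 0.848 ± 0.240 FPKM (SD, n = 8) in siLuc, with an adjusted p of 0.393.

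The second heavy chain, Slc3a1, was the most abundant member that fell. In the kidney and gut Slc3a1 (rBAT) joins Slc7a9 to take up cystine and dibasic amino acids, and either gene can cause cystinuria in humans. Slc3a1 (chr17:85028376-85064236, plus strand) had 27.4, 1.30, 2.21, 1.84 and 14.2 FPKM in siYap replicates 1 to 5, against 9.95, 62.6 and 90.4 FPKM as the lowest, median and highest of siLuc. The siYap libraries were uneven, with replicates 1 and 5 high and the other 3 low, and the 2 high ones reached past the lowest siLuc library, replicate 1. The log2 fold change was -2.65 ± 0.76 (SE), the mean 6.22-fold lower in siYap, and the adjusted p 0.0181. Without siYap replicate 1 the log2 fold change was -3.57. The opposite-strand neighbour Prepl, whose exons overlap those of Slc3a1, had a log2 fold change of -0.66 ± 0.25 and an adjusted p of 0.0574.

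The light chain Slc7a9 was not tested, with at most 2 fragments in a siYap and 7 in a siLuc library. Slc7a13, a light chain that joins Slc3a1 in the mouse kidney, was called lower at very low counts (1 to 3 fragments in siYap and 2 to 52 in siLuc libraries). Its level was 0.0160 to 0.0444 FPKM in siYap and 0.0294 to 0.760 FPKM in siLuc libraries, with a log2 fold change of -3.06 ± 0.73 (SE) and an adjusted p of 0.0062. Slc7a15, a mouse gene of the same group, stood at 0.403 ± 0.304 FPKM (SD, n = 5) in siYap and 0.115 ± 0.103 FPKM (SD, n = 8) in siLuc, with an adjusted p of 0.0759. Slc7a10 and Slc7a12 were not tested.

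Of the 4 glutamate and aspartate carriers in the set, which leaves out Slc1a2, 3 were tested. Slc1a1 was called lower and none higher, against 14.8% and 16.0% of all genes tested. Slc1a1 (chr19:28835049-28913960, plus strand), or EAAT3, carries glutamate, aspartate and cysteine into neurons and epithelia. It had 0.173, 0.0618, 0.0529, 0.103 and 0.0571 FPKM in siYap replicates 1 to 5, which rest on 6 to 18 fragments. In siLuc it had 6.27, 0.321, 4.63, 2.65, 2.63, 4.22, 4.56 and 0.315 FPKM in replicates 1 to 8. The siLuc replicates 2 and 8 were far below the other 6, yet still above each siYap library. The mean was 35.7-fold lower in siYap, with a log2 fold change of -5.16 ± 0.80 (SE) and an adjusted p of 0.000441. Within digits 6, 7 and 8 the difference was -3.55, -5.35 and -2.18 in log2 CPM. The gene 4430402I18Rik overlaps its exons on the other strand, with a log2 fold change of -1.16 ± 0.50 and an adjusted p of 0.0896. Slc1a3 (adjusted p = 0.423) and Slc1a7 (adjusted p = 0.458) did not pass the test and stayed under 1 FPKM on average, and Slc1a6 was not tested.

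**Figure D3:**
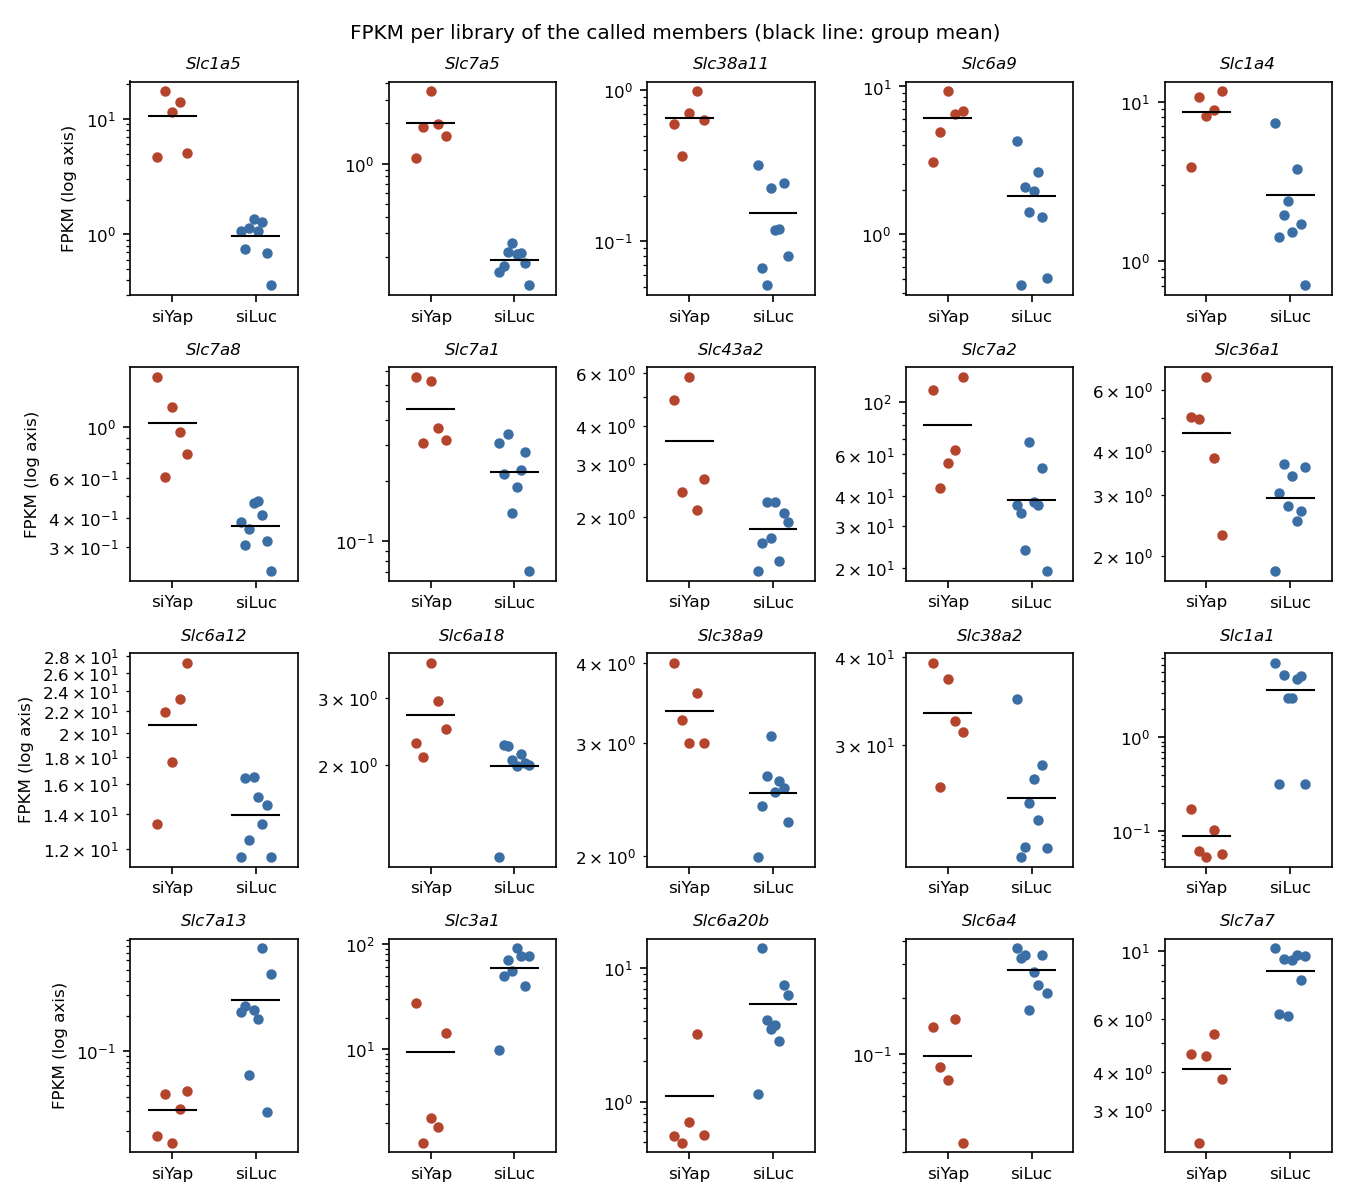
FPKM of the 20 called members in each library (points, log axis) with the group mean (line), siYap left of siLuc in each panel. Slc1a5, Slc7a5, Slc7a8 and Slc38a11 show siYap points above all siLuc points, and Slc1a1, Slc6a4 and Slc7a7 show them below.

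Of the 5 cationic carriers, 4 were tested. Slc7a2 and Slc7a1 were called higher and Slc7a14 and Slc7a4 were not called, where 16.0% of all genes tested were called higher. Slc7a2 (chr8:40862396-40922308, plus strand), or CAT2, is the main arginine and lysine carrier of hepatocytes. It had 112, 43.5, 55.5, 62.9 and 127 FPKM in siYap replicates 1 to 5, against 19.4, 36.7 and 67.8 FPKM as the lowest, median and highest of siLuc. Replicates 1 and 5 were above the siLuc range and the other 3 siYap libraries within it. Its mean was 2.08-fold higher, with a log2 fold change of 1.06 ± 0.31 (SE) and an adjusted p of 0.0179, which became 0.0505 without siYap replicate 1 and 0.0607 without siYap replicate 5. By mean FPKM, Slc7a2 was the second most abundant member in siYap tumours and the fourth in siLuc tumours.

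Slc7a1, or CAT1, the widely expressed arginine carrier, was at 0.307 to 0.657 FPKM in siYap and 0.0710 to 0.342 FPKM in siLuc libraries. It had a log2 fold change of 1.10 ± 0.34 (SE) and an adjusted p of 0.0252, which became 0.0845 without siYap replicate 1 and 0.0724 without siYap replicate 3. Slc7a14 stood at 2.54 ± 0.516 FPKM (SD, n = 5) in siYap and 2.89 ± 2.13 FPKM (SD, n = 8) in siLuc (adjusted p = 0.737). Slc7a4 stood at 0.455 ± 0.187 FPKM (SD, n = 5) in siYap and 0.713 ± 0.296 FPKM (SD, n = 8) in siLuc (adjusted p = 0.179), and Slc7a3 was not tested.

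Slc38a4, or SNAT4, which carries neutral amino acids into hepatocytes and is an imprinted gene in mice, was the most abundant transporter in both groups and did not pass the test. It stood at 272 ± 87.4 FPKM (SD, n = 5) in siYap and 253 ± 72.0 FPKM (SD, n = 8) in siLuc (log2 fold change 0.10 ± 0.23, adjusted p = 0.761). It made up 33.0% to 50.5% of the summed FPKM of all 60 members in siYap and 33.6% to 54.3% in siLuc libraries. That sum was 471 to 773 FPKM in siYap and 495 to 724 FPKM in siLuc libraries, with overlapping ranges.

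Of the 10 members of the Slc38a family, 8 were tested. Of these, 3 were called higher and none lower, against 16.0% and 14.8% of all genes tested. Slc38a2 (chr15:96687392-96699730, minus strand), or SNAT2, is the carrier that cells raise when amino acids are short. It had 39.3, 26.1, 37.2, 32.4 and 31.3 FPKM in siYap replicates 1 to 5, against 20.7, 24.0 and 34.9 FPKM as the lowest, median and highest of siLuc, with the highest in replicate 1. Its log2 fold change was small, 0.37 ± 0.12 (SE), with an adjusted p of 0.0276. Replicates 1 and 3 of siYap lay above the siLuc range and the other 3 within it. The call ended without any 1 of siYap replicates 3, 4 and 5 or siLuc replicate 3, where the adjusted p reached 0.0824.

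Slc38a9 (chr13:112660751-112738749, plus strand), the arginine sensor on the lysosome that signals to mTORC1, had 4.0, 3.25, 3.0, 3.59 and 3.0 FPKM in siYap replicates 1 to 5. The siLuc libraries ran from 1.99 through 2.53 to 3.07 FPKM, so that siYap replicates 3 and 5 fell just inside their range. The log2 fold change was 0.40 ± 0.14 (SE) and the adjusted p 0.0345. It was not called without siYap replicate 1, 2 or 4 or without siLuc replicate 2, where the adjusted p was at most 0.0787. Slc38a7, a glutamine and asparagine carrier of the lysosome, stood at 3.98 ± 0.861 FPKM (SD, n = 5) in siYap and 2.81 ± 0.664 FPKM (SD, n = 8) in siLuc, with an adjusted p of 0.0539.

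Slc38a11, whose substrates are little known, was at 0.366 to 0.985 FPKM in siYap and 0.0510 to 0.320 FPKM in siLuc libraries, on 19 to 46 fragments in siYap and 3 to 13 in siLuc. The groups did not overlap, with a log2 fold change of 2.13 ± 0.42 (SE) and an adjusted p of 0.00171. Slc38a1, or SNAT1, the glutamine carrier of many proliferating cells, stood at 0.797 ± 0.427 FPKM (SD, n = 5) in siYap and 0.415 ± 0.160 FPKM (SD, n = 8) in siLuc, with an adjusted p of 0.0502. Slc38a10 (adjusted p = 0.275) and Slc38a6 (adjusted p = 0.544) did not pass the test, and Slc38a5 and Slc38a8 were not tested.

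The Slc6a family holds the carriers of neurotransmitters and osmolytes. Of its 19 members, some of them untested, 3 were called higher and 2 lower, against 16.0% and 14.8% of all genes tested. Slc6a9 (chr4:117834506-117875198, plus strand), or GlyT1, the glycine carrier, had 3.07, 4.91, 9.29, 6.47 and 6.78 FPKM in siYap replicates 1 to 5. Its siLuc values ran from 0.451 through a median of 1.70 to 4.27 FPKM, with the highest in replicate 1, and only siYap replicate 1 lay within that range. Its mean was 3.34-fold higher (log2 fold change 1.76 ± 0.44, adjusted p = 0.0088). Exons of Slc6a9 overlap those of B4galt2 and Ccdc24 on the other strand. Both moved the other way, with log2 fold changes of -1.50 ± 0.42 (adjusted p = 0.0142) and -2.20 ± 0.43 (adjusted p = 0.00169).

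Slc6a12 (chr6:121343076-121365775, plus strand), the carrier of betaine and GABA, had 13.4, 21.9, 17.6, 23.2 and 27.2 FPKM in siYap replicates 1 to 5. In siLuc it had 11.6, 14.0 and 16.5 FPKM as the lowest, median and highest. Each siYap library except replicate 1 lay above the siLuc range, with a log2 fold change of 0.59 ± 0.15 (SE) and an adjusted p of 0.00725. Its neighbour in function, Slc6a13, the liver carrier of GABA and taurine, stood at 40.8 ± 7.06 FPKM (SD, n = 5) in siYap and 52.2 ± 6.83 FPKM (SD, n = 8) in siLuc, and was not called (-0.31 on the log2 scale, adjusted p = 0.0601). The taurine carrier Slc6a6 was at 21.2 ± 2.74 FPKM (SD, n = 5) in siYap and 23.0 ± 4.60 FPKM (SD, n = 8) in siLuc (adjusted p = 0.713). The creatine carrier Slc6a8 was at 4.09 ± 0.854 FPKM (SD, n = 5) in siYap and 5.93 ± 1.95 FPKM (SD, n = 8) in siLuc (adjusted p = 0.134).

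Slc6a20b (chr9:123590800-123632565, minus strand), a paralog of the proline carrier Slc6a20a, had 0.552, 0.491, 0.701, 3.23 and 0.565 FPKM in siYap replicates 1 to 5. Its siLuc values ran from 1.13 through a median of 3.91 to 14.1 FPKM. Only siYap replicate 4 reached into the siLuc range. Its log2 fold change was -2.23 ± 0.61 (SE, adjusted p = 0.0136), and -3.09 without siYap replicate 4. Slc6a20a, its neighbour, was not tested, at 0 to 0.0914 FPKM in siYap and 0.0167 to 1.61 FPKM in siLuc libraries. How reads shared by the pair were counted is not given in the sources used here. Exons of Sacm1l overlap Slc6a20b on the other strand, and Sacm1l had a log2 fold change of 0.10 ± 0.19 (adjusted p = 0.701).

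Slc6a18, a carrier of neutral amino acids in the kidney, had 2.28, 2.1, 3.72, 2.94 and 2.49 FPKM in siYap replicates 1 to 5. The siLuc libraries had 1.14, 2.04 and 2.26 FPKM as the lowest, median and highest, so that siYap replicate 2 was inside the range. The log2 fold change was 0.50 ± 0.16 (SE) and the adjusted p 0.0314, which rose above 0.05 without siYap replicates 1, 3 or 4 and was at most 0.105. Slc6a4, the serotonin carrier, was at 0.0337 to 0.154 FPKM in siYap and 0.171 to 0.365 FPKM in siLuc libraries. These rest on 3 to 13 fragments in siYap and 18 to 36 in siLuc, with a log2 fold change of -1.48 ± 0.39 (SE) and an adjusted p of 0.0104. Slc6a2 (adjusted p = 0.596) and Slc6a17 (adjusted p = 0.424) did not pass the test and averaged at most 0.107 FPKM in either group.

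Of the 4 proton-coupled carriers, 3 were tested, and 16.0% of all genes tested were called higher. Slc36a1 (chr11:55204350-55236330, plus strand), or PAT1, a lysosomal exporter of small neutral amino acids, was called higher. It had 5.04, 4.95, 6.55, 3.83 and 2.30 FPKM in siYap replicates 1 to 5, against 1.81, 2.90 and 3.69 FPKM as the lowest, median and highest of siLuc. Each siYap library except replicate 5 lay above that range. The log2 fold change was 0.66 ± 0.22 (SE) and the adjusted p 0.0358, and the difference was 1.22 and 0.73 within digits 6 and 7 but -0.63 within digit 8. The call ended without any 1 of siYap replicates 1, 2 and 3, or any 1 of siLuc replicates 2, 4, 6 and 7, and the adjusted p reached 0.126. Slc36a4 stood at 3.07 ± 1.11 FPKM (SD, n = 5) in siYap and 4.37 ± 1.19 FPKM (SD, n = 8) in siLuc (adjusted p = 0.105). Slc36a2 had few fragments (adjusted p = 0.627) and Slc36a3 was not tested.

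The Slc43a family has 2 carriers of branched-chain and other large neutral amino acids, Slc43a1 and Slc43a2, and a purine nucleobase carrier, Slc43a3. Slc43a2 (chr11:75531694-75577575, plus strand), or LAT4, had 4.89, 2.41, 5.83, 2.1 and 2.67 FPKM in siYap replicates 1 to 5, against 1.32, 1.81 and 2.24 FPKM as the lowest, median and highest of siLuc. Only siYap replicate 4 lay within the siLuc range. The log2 fold change was 1.07 ± 0.26 (SE) and the adjusted p 0.00594. The 2 highest siYap values were those of replicates 1 and 3, the libraries of lowest depth, and without both the adjusted p was 0.132. Slc43a1, or LAT3, stood at 0.654 ± 0.458 FPKM (SD, n = 5) in siYap and 0.292 ± 0.178 FPKM (SD, n = 8) in siLuc (log2 fold change 1.24 ± 0.50, adjusted p = 0.0721), and the log2 fold change was 0.64 without siYap replicate 1. Slc43a3 stood at 18.7 ± 6.13 FPKM (SD, n = 5) in siYap and 15.2 ± 4.25 FPKM (SD, n = 8) in siLuc (adjusted p = 0.276). Slc7a6os was at 11.1 ± 1.66 FPKM (SD, n = 5) in siYap and 11.3 ± 1.80 FPKM (SD, n = 8) in siLuc (adjusted p = 0.866).

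The 17 members that were not tested had at most 12 fragments in a siYap library and 116 in a siLuc library. That highest siLuc value was of Slc6a20a in replicate 2. In 4 of them no library had a fragment. Among the 17 were the GABA carrier Slc6a11, the dopamine carrier Slc6a3, the glycine carrier Slc6a5, and Slc6a14, Slc6a15 and Slc6a19.

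Members differed in how much they varied within a group. Among the 41 tested members above 0 in each library, the ratio of the highest to the lowest library had a median of 2.28 in siYap and 2.34 in siLuc. It reached 10 in 1 member in siYap (Slc3a1, 21.1) and in 6 members in siLuc. Those were Slc7a11 (434), Slc7a13 (25.8), Slc1a1 (19.9), Slc6a20b (12.4), Slc1a3 (11.2) and Slc1a4 (10.4). The siLuc replicate 1 was the highest siLuc library for 10 of the 43 tested members and the lowest for 9. That was not particular to it, as siLuc replicate 4 was the highest for 9 and siLuc replicate 8 the lowest for 13. The siLuc replicate 1 was also the highest for 20 of the 30 genes of the amino acid response list. It had 116 FPKM of Atf4, 19.1 FPKM of Asns and 10.3 FPKM of Trib3. The other siLuc libraries had 60.2 to 71.6 FPKM of Atf4, and siYap libraries had 41.7 to 62.4 FPKM.

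**Figure D4:**
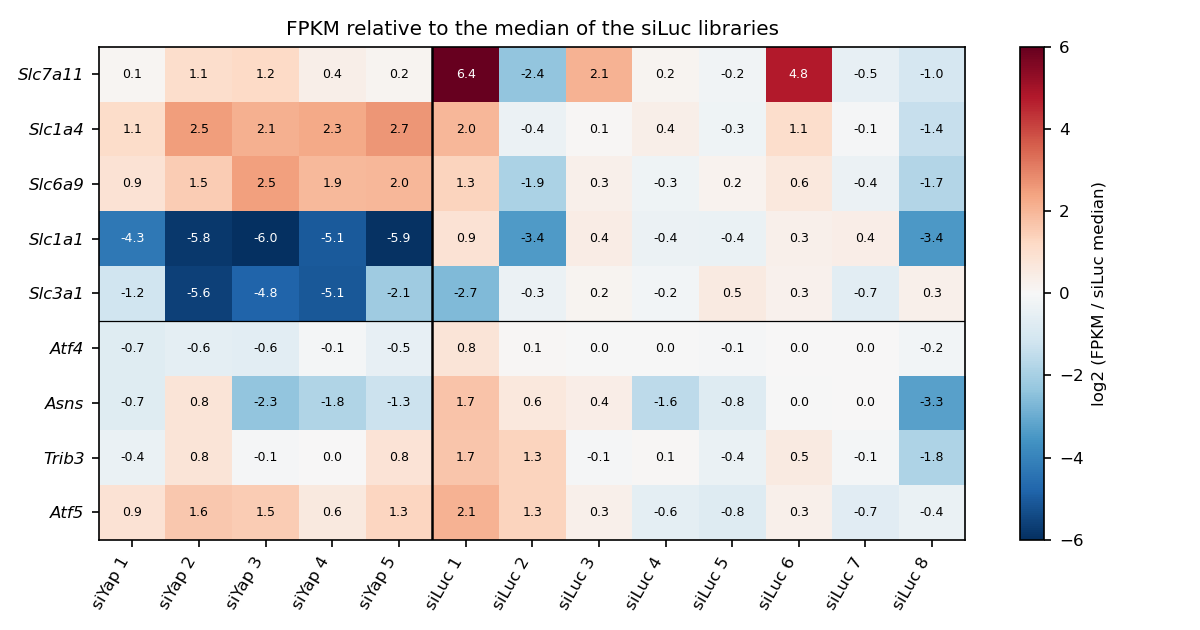
Log2 of FPKM over the median of the siLuc libraries (colour and number in each cell) for 5 members and 4 genes of the amino acid response (rows), in each library (columns, siYap left of siLuc). Slc7a11 reaches 77.9 FPKM in siLuc replicate 1 and 25.4 FPKM in siLuc replicate 6, and siLuc replicate 1 is also the highest siLuc library for the 4 response genes and for Slc1a4.

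The promoters of 3 members are shown because they hold the C/EBP-ATF response element, TGATGNAA, through which Atf4 and its partners are known to act. RefSeq windows of 300 bases around a start site (GRCm38.p6) were found for 43 of the 60 members, in 64 windows, and both strands were searched. Among the called members, Slc1a5, Slc7a5, Slc7a2, Slc6a18 and Slc7a13 had no window, so their promoters were not searched for any motif. The element was in 4 windows of 3 members, and in 3.97% of all 32851 promoter windows. Overlapping windows of Slc7a7 that share a copy of the element were counted separately. Slc7a11 (chr3:50443564-50443863, minus strand) has 2 copies that start 66 and 47 bases before the start site, on opposite strands. Slc1a4 (chr11:20332664-20332963, minus strand) has 1, read on the opposite strand and starting 4 bases before the start site. Slc7a7 has many annotated starts, and 1 window (chr14:54417895-54418194, minus strand) has copies starting 141 bases and 1 base before its start. Sequences are on the strand of the gene, with the element in capitals, and in the Slc7a7 window also the letters CTTTGA, described below.
Slc7a11: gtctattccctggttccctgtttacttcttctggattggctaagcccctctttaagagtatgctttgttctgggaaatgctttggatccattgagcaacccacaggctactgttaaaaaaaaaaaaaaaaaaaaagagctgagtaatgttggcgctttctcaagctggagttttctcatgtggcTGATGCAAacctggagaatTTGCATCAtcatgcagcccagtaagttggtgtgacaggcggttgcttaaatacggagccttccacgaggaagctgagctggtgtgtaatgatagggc
Slc1a4: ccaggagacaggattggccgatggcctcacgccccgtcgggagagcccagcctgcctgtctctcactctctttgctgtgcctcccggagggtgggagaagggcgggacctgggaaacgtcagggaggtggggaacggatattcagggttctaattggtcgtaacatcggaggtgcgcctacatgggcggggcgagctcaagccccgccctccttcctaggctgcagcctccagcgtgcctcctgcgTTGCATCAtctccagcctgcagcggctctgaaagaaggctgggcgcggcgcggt
Slc7a7: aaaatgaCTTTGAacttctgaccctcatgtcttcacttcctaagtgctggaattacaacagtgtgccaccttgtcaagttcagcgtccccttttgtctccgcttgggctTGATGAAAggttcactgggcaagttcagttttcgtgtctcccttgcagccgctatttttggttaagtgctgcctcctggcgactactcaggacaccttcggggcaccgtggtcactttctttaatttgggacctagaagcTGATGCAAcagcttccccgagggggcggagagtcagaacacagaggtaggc
These 3 members did not move alike: Slc1a4 rose, Slc7a7 fell and Slc7a11 did not pass the test. In siLuc replicate 1, Slc7a11, Slc1a4 and Slc7a7 were each at the highest value of their group. For Slc7a11 that was 77.9 FPKM (next 25.4 FPKM) and for Slc1a4 7.35 FPKM (next 3.80 FPKM). For Slc7a7 the lead was small, at 10.2 FPKM with 9.68 FPKM next.

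Further motifs were searched in the same windows. CATTCC, the core letters bound by TEAD factors, the DNA-binding partners of Yap, were in 11 of the 64 windows (10 members) and in 14.7% of all windows. CTTTGA, the core letters bound by TCF factors, were in 9 windows (9 members) and in 16.0% of all windows. A match of letters is not a bound site.

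Related genes outside the 7 families were described from 4 further lists. Of 20 tested genes in other families of amino acid and oligopeptide transporters, 5 were higher (25%) and none lower in siYap, against 16.0% and 14.8% of all genes tested, with a median log2 fold change of 0.34. Slc16a10, or TAT1, the carrier of aromatic amino acids in liver, had 34.3, 62.9, 63.7, 79.1 and 55.1 FPKM in siYap replicates 1 to 5, against 2.46, 4.39 and 7.08 FPKM as the lowest, median and highest of siLuc. Its log2 fold change was 4.08 ± 0.29 (SE) at an adjusted p of 1.08e-06, above those of Slc1a5 and Slc7a5. In mitochondria, the ornithine carrier Slc25a15 averaged 100.2 ± 37.1 FPKM (SD, n = 5) in siYap and 33.6 ± 5.01 FPKM (SD, n = 8) in siLuc (log2 fold change 1.58 ± 0.19, adjusted p = 4.23e-05). The glutamate carrier Slc25a22 averaged 8.30 ± 4.25 FPKM (SD, n = 5) in siYap and 2.14 ± 0.547 FPKM (SD, n = 8) in siLuc (log2 fold change 1.97 ± 0.26, adjusted p = 9.74e-05).

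Of the 30 genes of the amino acid response list, 5 were higher and 5 lower in siYap, 16.7% each way, near the shares over all genes tested (16.0% and 14.8%), with a median log2 fold change of -0.07. Aars, the alanyl-tRNA synthetase, had 65.3 ± 18.6 FPKM (SD, n = 5) in siYap and 15.1 ± 2.96 FPKM (SD, n = 8) in siLuc (log2 fold change 2.12 ± 0.18, adjusted p = 4.60e-06). Vldlr, a lipoprotein receptor, had 29.8 ± 23.2 FPKM (SD, n = 5) in siYap and 1.54 ± 1.28 FPKM (SD, n = 8) in siLuc (log2 fold change 4.27 ± 0.65, adjusted p = 0.000365). Psph, the last enzyme of serine synthesis, had 3.59 ± 0.674 FPKM (SD, n = 5) in siYap and 8.53 ± 3.01 FPKM (SD, n = 8) in siLuc (log2 fold change -1.26 ± 0.24, adjusted p = 0.00155). Atf4 itself was among the 5 lower genes, with a log2 fold change of -0.59 ± 0.15 and an adjusted p of 0.008.

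Of 33 tested genes of amino acid sensing by mTORC1, the growth kinase complex that leucine and arginine switch on, 9 were higher (27.3%) and 5 lower (15.2%), against 16.0% and 14.8% of all genes tested, with a median log2 fold change of 0.05. Rptor, a subunit of the complex, had 3.64 ± 1.26 FPKM (SD, n = 5) in siYap and 2.18 ± 0.229 FPKM (SD, n = 8) in siLuc (log2 fold change 0.78 ± 0.17, adjusted p = 0.00289). Its inhibitor Tsc2 rose too, to 5.65 ± 2.45 FPKM (SD, n = 5) in siYap, against 3.15 ± 0.506 FPKM (SD, n = 8) in siLuc (log2 fold change 0.89 ± 0.19, adjusted p = 0.0033). Rragd, a GTPase that brings the complex to the lysosome, fell to 18.8 ± 4.38 FPKM (SD, n = 5) in siYap, against 48.6 ± 14.9 FPKM (SD, n = 8) in siLuc (log2 fold change -1.36 ± 0.23, adjusted p = 0.000556).

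Of 25 tested enzymes that use glutamate, cysteine and branched-chain amino acids, 5 were higher and 5 lower, 20% each way against 16.0% and 14.8% of all genes tested, with a median log2 fold change of 0.11. Bckdhb, a subunit of the branched-chain ketoacid dehydrogenase, rose to 59.3 ± 9.95 FPKM (SD, n = 5) in siYap, against 26.0 ± 4.11 FPKM (SD, n = 8) in siLuc (log2 fold change 1.17 ± 0.14, adjusted p = 4.88e-05). Cdo1, the cysteine dioxygenase, rose to 1525 ± 711 FPKM (SD, n = 5) in siYap, against 509 ± 139 FPKM (SD, n = 8) in siLuc (log2 fold change 1.59 ± 0.27, adjusted p = 0.000718).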

How the data were processed

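RNA of 13 tumour libraries was analysed. Per the labels' protocols, the ScriptSeq Complete Gold kit was used and sequencing was on a HiSeq2500. The submitters' processing notes name Trimmomatic 0.30, TopHat2 2.0.8, Cufflinks, Cuffdiff 2.1.1 and the build mm10. No source used here states the annotation, the strand setting or the treatment of multiply mapped reads. Per the file headers, the authors deposited for each library an unscaled estimated count of fragments per gene and an FPKM value scaled by Cuffdiff. Between 97.6% and 98.0% of the estimated counts of a library were whole within 1e-06. The replicate indices of the siYap tables have gaps, so it is not known which libraries set the FPKM scaling. Alb, Apob and Trf, listed at 0 with a depth mark, were left out, and no member carried a failure mark. A table of the whole series was not used.

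Rounded estimated counts were tested with edgeR's quasi-likelihood test (edgeR 4.0.16, R 4.3.3, robust fit, TMM, filterByExpr by group), siYap against siLuc, without covariates, and p-values were adjusted by Benjamini-Hochberg over 15132 genes. Log2 fold changes, their standard errors (fold change over the root of F) and adjusted p come from this fit, ratios from mean FPKM, and within-digit differences from mean log2 CPM with a prior count of 2. Every pair of libraries within a group differed beyond sampling noise (chi-square per degree of freedom at least 34.8). The code was tested on simulated data. Positions are from GENCODE M21 (GRCm38), matched by symbol for 60 of 60 members, and promoters from RefSeq GRCm38.p6.

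Called members that averaged at least 1 FPKM in a group are given by library, other members by mean or range, and 3 tested genes of smallest p per further list. Slc6a20a, Slc7a11 by library, Atf4, Asns, Trib3 and genes with overlapping exons were picked outside this rule, with their values known. A few results that this rule would name are not reported here. Members and lists were chosen with earlier results of these data known. Alternatives were DESeq2 1.42.0 (size factors, and its Wald test), upper-quartile scaling, limma 3.58.1 on log2(FPKM + 1) or log2(FPKM + 0.1) with a minimum of 1 FPKM in 5 libraries, no count filter, a minimum mean count of 50, a replicate block, the file-code digit as a covariate, sums of counts over libraries of a group whose file names share a number, each library left out, and stricter thresholds. Leaving out siYap replicates 1 and 3 together was added after seeing the data.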

Additional observations from a re-analysis of the deposited data

Results flagged for a closer look

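Of 86 groups of libraries examined (43 tested members in 2 treatments), 7 had 1 library far from the rest by Dixon's test. For normally distributed values chance gives about 1 in 20, or 4.3 groups. The test was run on FPKM without a log scale, so 4.3 is only a rough guide. In siYap, Slc6a20b was at 3.23 FPKM in replicate 4, and the next library had 0.701 FPKM. Slc43a1 was at 1.47 FPKM in siYap replicate 1, and the next had 0.514 FPKM. In siLuc, replicate 1 was apart for 3 members. It had 77.9 FPKM of Slc7a11 (next 25.4 FPKM), 7.35 FPKM of Slc1a4 (next 3.80 FPKM) and, as the lowest library, 1.14 FPKM of Slc6a18 (next 1.98 FPKM). Slc6a2 was at 0.172 FPKM in siLuc replicate 2 (next 0.101 FPKM), and Slc7a14 at 8.13 FPKM in siLuc replicate 4 (next 2.70 FPKM).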

How the results depend on the processing

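Without 1 library at a time, 9 to 15 members were called higher and 6 to 8 lower (9 higher without siYap replicate 1), and 1729 to 2397 of all genes were higher and 1596 to 2236 lower. In limma on log2(FPKM + 1) and on log2(FPKM + 0.1), where the filter left only 29 members to test, 9 members were higher and 4 lower. Of 12239 genes tested there, 1728 were higher and 2011 lower on log2(FPKM + 1), and 1706 and 2037 on log2(FPKM + 0.1). With counts summed per number in the file name, 9 members were higher and 7 lower, and of all genes 1901 were higher and 1892 lower. Without both siYap libraries of lowest depth, 7 members were higher and 5 lower, and of all genes 1512 were higher and 1472 lower. At an adjusted p under 0.01, 8 members were higher and 3 lower, and 1264 and 1098 of all genes. With a log2 fold change of at least 1 in size as well, 9 members were higher and 6 lower, and of all genes 1053 were higher and 939 lower. The 20 called members were all called with the same sign by DESeq2's Wald test and with the file-code digit as a term. No call changed sign under any setting run. In limma, Slc36a1 and Slc6a18 were not called. Over the settings of the single members and of Yap1, which was counted with them, 947 values kept their side of the threshold, 50 lost it and 21 gained it. With a few fragments per library, calls for Slc7a13, Slc6a4 and Slc38a11 are limited by depth.

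With the replicate number as a replicate block, 7 members were higher and 3 lower, 10 of them among the 20, and 1199 of all genes were higher and 1126 lower. Deviations of same-numbered libraries correlated at -0.12, 0.13, 0.07, 0.12 and -0.09 for numbers 1 to 5. Same-numbered libraries 1 to 4 also share the file-code digit, and those numbered 5 do not. So few and such low correlations cannot show whether same-numbered libraries share anything more. Replicates 2 and 4 of siLuc correlated best with their own number.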
